A study of Mus musculus with 18 samples.

Results

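The enzymes that modify and crosslink collagen were followed in sorted mouse pancreatic cells. They comprised 5 lysyl oxidases (Lox, Loxl1, Loxl2, Loxl3 and Loxl4), 3 lysyl hydroxylases (Plod1, Plod2 and Plod3) and 2 alpha chains of collagen prolyl 4-hydroxylase (P4ha2 and P4ha3). These 10 genes were picked by name out of the 23951 in the deposited table. Earlier results of these data were known when they were chosen. All 10 passed the filter on low values that left 13369 genes for testing, and none was listed at 0 in any of the 18 libraries.

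Poly(A) RNA was sequenced from fibroblasts and tumor cells sorted from fresh mouse pancreas and pancreatic ductal adenocarcinoma. Normal pancreatic fibroblasts (NPF, n = 3) came from K-Ras+/+ mice that carried Elas-tTA/tetO-Cre and Rosa26+/EYFP. Cancer-associated fibroblasts (WT_CAF, n = 5) and tumor cells (WT_tumor, n = 4) came from mice with the alleles K-Ras+/LSLG12Vgeo and Trp53lox/lox beside Elas-tTA/tetO-Cre and Rosa26+/EYFP. The same 4 alleles together with Saa3-/-, a deletion of an acute-phase serum amyloid gene, gave the knockout fibroblasts (KO_CAF, n = 3) and knockout tumor cells (KO_tumor, n = 3). The Cre driver and the reporter are therefore shared by all 5 groups, normal controls included, and the oncogenic K-Ras and floxed Trp53 alleles by all but NPF. The elastase promoter of the driver is active in acinar cells of the pancreas, so Cre is directed to those cells and not to fibroblasts. The labels used here give no ages and do not tie libraries to animals. The series design calls the samples biological replicates.

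Collagen chains are hydroxylated in the endoplasmic reticulum. Prolyl 4-hydroxylase, a tetramer of alpha chains with the shared beta chain P4hb, makes the hydroxyproline that keeps the triple helix stable at body temperature, and lysyl hydroxylases make the hydroxylysine used for sugar attachment and crosslinks. After secretion, copper-dependent lysyl oxidases turn lysines and hydroxylysines of collagen and elastin into aldehydes, which then join neighbouring molecules into stiff, insoluble fibres. In pancreatic ductal adenocarcinoma, a tumor known for its dense collagenous stroma, these fibres are laid down mostly by fibroblasts. The lysyl and prolyl hydroxylases also need iron, oxygen, 2-oxoglutarate and vitamin C.

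Values are FPKM (fragments scaled by the length of the transcript and by the mapped fragments of the library), which allow levels of different genes to be set side by side. FPKM summed to 396646 to 919859 per library and 10657 to 11670 genes reached 1 FPKM, while the depth in fragments is unknown. Saa3 stood at 1.85 FPKM or less in the 6 knockout libraries and at 2.75 FPKM or more in the other 12. It was low in most tumor cells with Saa3 intact, at 4.10, 2.75 and 3.13 FPKM in WT_tumor 1, 2 and 4 and 106 in WT_tumor 3. WT_CAF 1 had 7.24 FPKM of Saa3, where WT_CAF 2 to 5 had 892 to 4278. WT_CAF 1 (replicate 1 of WT_CAF) stood apart from its group. Its mean over 8 fibroblast markers was 3.84 on the log2(FPKM + 1) scale against 6.17 to 8.21 in WT_CAF 2 to 5. Its Pdgfra was 9.80 FPKM against 81.0 to 121, and its Krt19, a ductal keratin, was 119 FPKM against 7.04 to 41.6. The epithelial adhesion gene Epcam went the other way, at 0.220 FPKM in WT_CAF 1 against 0.552 to 12.1. Over 8 epithelial markers the mean of WT_CAF 1 was 3.47, above WT_CAF 2 to 4 (1.83 to 2.24) and below WT_CAF 5 (4.70). WT_tumor 4 had 2.60 FPKM of Epcam against 129 to 549 in the other 3 WT_tumor libraries, and its Krt19 was 438 FPKM. WT_tumor 3 held more fibroblast marker RNA than the other tumor cell libraries, its mean over the 8 markers being 3.31 where the other 6 had 0.77 to 2.09. Libraries also differed in the form of their labels: the 3 NPF libraries, WT_CAF 1 and WT_CAF 2 had no index sequence, 8 libraries had a 6-base index and 5 had a 16-base index. This library format entered every test as an additive term. Markers of acinar cells, the enzyme-secreting cells of the pancreas, differed widely between libraries: on the log2(FPKM + 1) scale, the mean over 8 of them ranged from 6.26 to 11.7 among NPF libraries, from 1.48 to 5.42 among WT_CAF and from 0.69 to 3.82 among KO_CAF. Tumor cells spanned 1.14 to 9.49 with Saa3 intact and 0.77 to 10.5 without it.

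Tumor cells were compared with the fibroblasts of the same genotype to see which cells of the tumor carry RNA for these enzymes. With Saa3 intact, 7 of the 10 enzymes were lower in tumor cells than in tumor fibroblasts and none was higher (adjusted p under 0.05, limma). Over all genes tested, 12.5% were lower and 9.05% higher by the same rule. Without Saa3, in libraries shared with none of the first comparison, 8 of 10 were lower and none was higher. Over all genes, 15.4% were lower and 13% higher there. Both comparisons came from 1 fit with shared format terms and a shared estimate of the spread, so they are not independent. The median difference over the 10 enzymes was -2.82 on the log2(FPKM + 1) scale with Saa3 intact and -3.54 without it, against 0.07 and 0.05 over all genes. By the ratio of mean FPKM with Saa3 intact, WT_CAF stood 85.9-fold above WT_tumor for Lox, 56.0-fold for Loxl1, 11.5-fold for Plod2 and 8.46-fold for Loxl2. Without WT_tumor 3 these ratios were 471-fold for Lox and 198-fold for Loxl1, and without WT_CAF 2 that of Loxl2 was 5.56-fold. In bulk RNA of sorted cells, a lower level cannot be split into fewer cells expressing the gene and less RNA per cell.

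**Figure D1:**
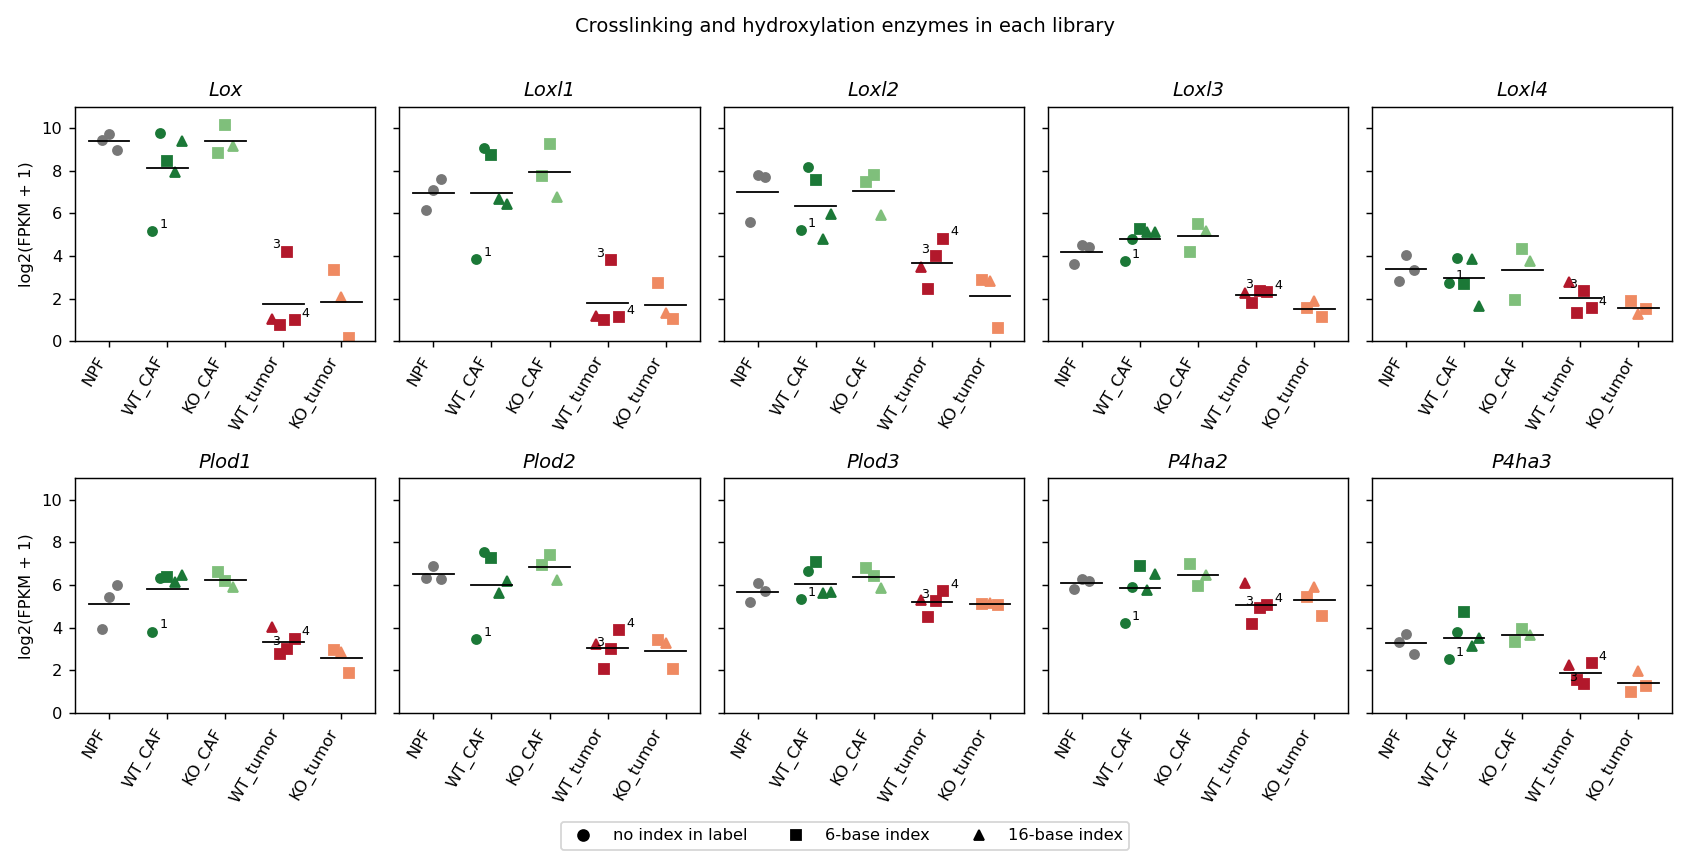
Level of each of the 10 enzymes in each library, on the log2(FPKM + 1) scale, with the groups on the x axis. Points are libraries (their shape gives the library format), lines are group means, and the digits 1, 3 and 4 mark WT_CAF 1, WT_tumor 3 and WT_tumor 4. For Lox, Loxl1, Loxl3 and P4ha3 no WT_tumor library reaches any WT_CAF library, while Plod3 and P4ha2 overlap between these groups.

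Lox, the enzyme that gave the family its name, had the highest mean of the 10 in each of the 3 fibroblast groups. It was not the highest member in every library: Loxl1 was above it in WT_CAF 3, and Plod3 and Loxl2 in WT_CAF 1. Lox stood at 702, 849.7 and 498 FPKM in NPF, at 34.8, 866, 349, 248 and 682 in WT_CAF 1 to 5, and at 460.1, 1146 and 578 in KO_CAF. In tumor cells it stood at 1.08, 0.680, 17.5 and 1.02 FPKM in WT_tumor 1 to 4 and at 9.01, 3.20 and 0.131 in KO_tumor 1 to 3. The fibroblast and tumor cell values did not overlap: the highest tumor cell library was WT_tumor 3, also the richest of the 7 in fibroblast markers, and the lowest fibroblast library was WT_CAF 1, also the poorest of the 11 in them. On the log2(FPKM + 1) scale Lox was lower in WT_tumor than in WT_CAF by a difference of -6.94 ± 1.10 (SE, adjusted p = 0.00106) and in KO_tumor than in KO_CAF by -7.54 ± 1.12 (adjusted p = 0.000584). Without WT_tumor 3 the first of these was -7.64 ± 1.001.

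Loxl1, the paralog that deposits crosslinks in elastic fibres, was likewise higher in each fibroblast library than in any tumor cell library. Its values were 70.6, 137 and 195 FPKM in NPF, 13.5, 533, 429, 99.95 and 84.9 in WT_CAF, and 214, 601 and 109.6 in KO_CAF. WT_tumor had 1.27, 1.02, 13.1 and 1.22 FPKM and KO_tumor 5.74, 1.51 and 1.06. WT_tumor 3 and KO_tumor 1 were again the highest tumor cell libraries of their groups, and the 13.1 FPKM of WT_tumor 3 came close to the 13.5 FPKM of WT_CAF 1. The difference was -6.03 ± 1.05 with Saa3 intact (adjusted p = 0.00173) and -6.22 ± 1.06 without it (adjusted p = 0.00119).

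Loxl2, which crosslinks the collagen IV of basement membranes and has been studied in invading tumor cells, had the highest mean of the lysyl oxidases in WT_tumor (14.2 ± 9.60 FPKM, SD, against 5.07 ± 8.30 for Lox). It stood there at 10.2, 4.56, 14.9 and 27.1 FPKM, with a mean of 9.89 without WT_tumor 4. Loxl2 was not the highest in every library, since Lox was above it in WT_tumor 3 at 17.5 FPKM. In KO_tumor it was 6.30, 6.02 and 0.547 FPKM. Fibroblasts had 46.9, 219.6 and 206 FPKM in NPF, 36.4, 285, 190.5, 26.6 and 62.5 in WT_CAF, and 177, 225 and 59.1 in KO_CAF. WT_tumor 4, the library low in Epcam, was the highest tumor cell library and overlapped WT_CAF 4. Loxl2 was lower in WT_tumor by -2.75 ± 0.92 (adjusted p = 0.047), a call that was lost in 16 of 28 alternative settings (adjusted p 0.011 to 0.30), and lower in KO_tumor by -4.96 ± 0.93 (adjusted p = 0.00206). Without WT_tumor 4 the first difference was -3.02 ± 0.96 (adjusted p = 0.0414), without WT_CAF 3 it was -1.93 ± 1.14 (adjusted p = 0.299).

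Loxl3 and Loxl4 are the remaining members with scavenger receptor domains like Loxl2. Loxl4 was low in every group, while Loxl3 was low in tumor cells and averaged 17.7, 29.0 and 32.0 FPKM in NPF, WT_CAF and KO_CAF. Loxl3 stood at 12.6, 27.3, 37.3, 33.8 and 33.9 FPKM in WT_CAF and at 3.85, 2.45, 4.10 and 4.01 in WT_tumor, with 17.4, 43.8 and 34.8 in KO_CAF and 1.92, 2.71 and 1.22 in KO_tumor. The fibroblast and tumor cell libraries did not overlap. Loxl3 gave the smallest adjusted p of the 10 enzymes in both comparisons (-2.90 ± 0.36, adjusted p = 0.000312, and -3.42 ± 0.36, adjusted p = 8.91e-05). Loxl4 ranged from 2.12 to 14.1 FPKM in WT_CAF and from 1.53 to 5.99 in WT_tumor. Its difference of -0.55 ± 0.64 with Saa3 intact did not pass the test (adjusted p = 0.558, interval -1.92 to 0.81). Without Saa3 it was -1.79 ± 0.65, which missed the threshold (adjusted p = 0.0521).

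The lysyl hydroxylases differed among themselves. Plod1, which hydroxylates helical lysines of collagen, stood at 13.1, 80.3, 82.7, 70.3 and 86.7 FPKM in WT_CAF 1 to 5 and at 15.2, 5.83, 7.12 and 10.2 in WT_tumor. In KO_CAF it was 97.5, 71.1 and 59.1 FPKM against 6.64, 6.31 and 2.70 in KO_tumor. Apart from WT_CAF 1, each tumor fibroblast library was above each tumor cell library. The difference was -2.91 ± 0.59 (adjusted p = 0.0043) with Saa3 intact and -3.67 ± 0.60 (adjusted p = 0.000957) without it.

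Plod2, the enzyme for the telopeptide lysines whose hydroxylation gives the most stable collagen crosslinks, stood at 10.04, 185, 151, 48.6 and 73.2 FPKM in WT_CAF and at 122, 168 and 73.4 in KO_CAF. Tumor cells had 8.37, 3.12, 7.04 and 13.9 FPKM in WT_tumor and 9.66, 8.75 and 3.13 in KO_tumor. WT_CAF 1 lay inside the range of WT_tumor, and WT_tumor 4 was the highest tumor cell library. The differences were -3.47 ± 0.79 (adjusted p = 0.00763) and -3.94 ± 0.80 (adjusted p = 0.00326). Without WT_CAF 3 the first was -2.91 ± 1.002, which did not pass the test (adjusted p = 0.0862), and the call was also lost with only WT_CAF and WT_tumor in the fit.

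Plod3, which also attaches glucose to hydroxylysine and is needed for collagen IV, was among the enzymes with the smaller differences between the cell types. WT_tumor had 37.9, 22.0, 36.9 and 51.3 FPKM and KO_tumor 33.7, 34.5 and 32.4, against 39.3, 99.7, 133, 48.2 and 49.5 in WT_CAF and 110.3, 84.9 and 56.4 in KO_CAF. KO_tumor libraries lay close together (coefficient of variation 3.07%) and below all KO_CAF libraries, while WT_tumor 4 reached above 3 of the 5 WT_CAF libraries. The difference of -1.13 ± 0.41 with Saa3 intact did not pass the test (adjusted p = 0.0637) and that of -1.25 ± 0.42 without Saa3 did (adjusted p = 0.0379), a call lost in 7 of 28 settings (adjusted p 0.021 to 0.11). With WT_CAF 1 and WT_tumor 4 both left out, the first difference was -1.24 ± 0.38 (adjusted p = 0.0313).

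The collagen prolyl 4-hydroxylase chains fell on both sides of that threshold. P4ha2, the alpha chain paired with P4hb in the type II enzyme, ranged from 17.7 to 117 FPKM in WT_CAF and from 17.0 to 66.5 in WT_tumor, and from 61.9 to 128 in KO_CAF and 22.7 to 58.2 in KO_tumor. Its differences were nearly equal, -1.17 ± 0.50 and -1.19 ± 0.51, and neither passed the test (adjusted p = 0.111 and 0.0956). P4ha3, the least abundant alpha chain, stood at 4.77, 12.7, 25.6, 7.78 and 10.5 FPKM in WT_CAF against 3.79, 1.96, 1.53 and 4.10 in WT_tumor, without overlap. It was lower by -1.92 ± 0.46 with Saa3 intact (adjusted p = 0.00928) and by -2.24 ± 0.46 without Saa3 (adjusted p = 0.00347), the latter from 9.18, 14.3 and 11.7 FPKM in KO_CAF to 1.01, 2.86 and 1.44 in KO_tumor. Without WT_CAF 3 the first difference was -1.12 ± 0.47 and did not pass the test (adjusted p = 0.146), and this call too was lost with only WT_CAF and WT_tumor in the fit.

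**Figure D2:**
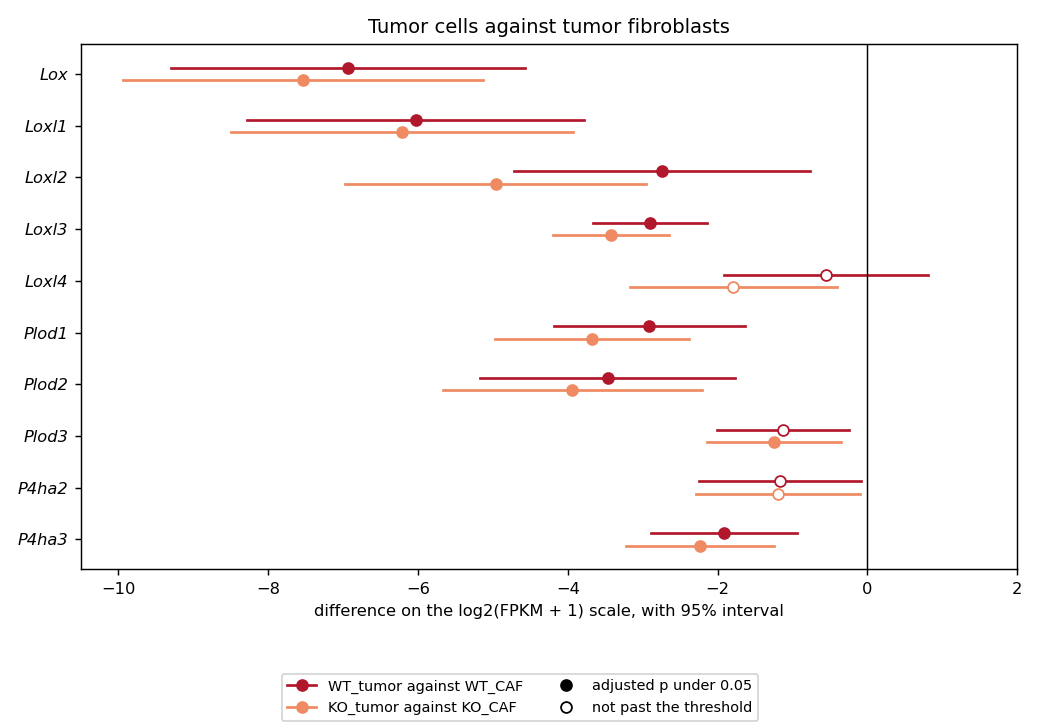
Difference between tumor cells and tumor fibroblasts for each enzyme, on the log2(FPKM + 1) scale with 95% intervals, with Saa3 intact (dark) and without Saa3 (light). Filled points have an adjusted p under 0.05: Lox and Loxl1 lie furthest left at -6.03 to -7.54, and Plod3 and P4ha2 nearest to 0 among the enzymes below -1.

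Promoters are shown for 4 of the hydroxylases, as a pair that fell in both comparisons (Plod1 and P4ha3) and the pair with the smallest differences among the hydroxylases (Plod3 and P4ha2). The sequences are the 250 bases before the RefSeq transcription start in GRCm38.p6, which is not the mm9 build named in the submitters' processing notes, and are written 5′ to 3′ on the gene's strand. RefSeq promoter windows were matched by symbol for 5 of the 10 enzymes (Loxl4, Plod1, Plod3, P4ha2 and P4ha3), and Lox, Loxl1, Loxl2, Loxl3 and Plod2 were not matched. Capitals mark ACGTG or its reverse complement CACGT, a form of the core of the hypoxia response element. They also mark GGGCGG or its reverse complement CCGCCC, the GC box, with overlapping matches counted. GCGTG, the other form of that core, was neither marked nor counted, so a window without ACGTG can still hold the core.
Plod1 (chr4:147936777-147937026, minus strand): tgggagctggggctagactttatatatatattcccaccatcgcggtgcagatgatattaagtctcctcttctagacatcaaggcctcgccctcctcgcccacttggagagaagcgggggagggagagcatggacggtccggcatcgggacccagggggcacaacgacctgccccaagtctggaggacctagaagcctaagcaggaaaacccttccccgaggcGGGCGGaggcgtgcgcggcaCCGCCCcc
P4ha3 (chr7:100285270-100285519, plus strand): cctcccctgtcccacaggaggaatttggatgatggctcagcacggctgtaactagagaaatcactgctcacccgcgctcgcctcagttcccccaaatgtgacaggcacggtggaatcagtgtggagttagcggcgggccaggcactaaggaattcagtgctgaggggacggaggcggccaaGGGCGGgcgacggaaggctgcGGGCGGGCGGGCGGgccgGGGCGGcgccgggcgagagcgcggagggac
Plod3 (chr5:136986769-136987018, plus strand): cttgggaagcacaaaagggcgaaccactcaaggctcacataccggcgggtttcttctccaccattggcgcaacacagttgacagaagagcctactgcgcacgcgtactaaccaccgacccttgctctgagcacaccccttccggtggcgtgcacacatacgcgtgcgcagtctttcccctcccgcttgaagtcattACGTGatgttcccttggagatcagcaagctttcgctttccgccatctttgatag
P4ha2 (chr11:54100674-54100923, plus strand): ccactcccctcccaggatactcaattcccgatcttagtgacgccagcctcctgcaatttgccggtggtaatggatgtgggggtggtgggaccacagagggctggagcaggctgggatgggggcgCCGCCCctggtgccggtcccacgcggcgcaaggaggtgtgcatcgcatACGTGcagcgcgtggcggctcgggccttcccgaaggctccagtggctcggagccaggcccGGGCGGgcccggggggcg
Of the 32817 windows of the same length in the RefSeq table, 16.6% held ACGTG and 32.7% held GGGCGG on either strand. Plod3 and P4ha2 had 1 ACGTG each and Plod1 and P4ha3 had 0, while GGGCGG was found 2 times in Plod1, 5 times in P4ha3, 2 times in P4ha2 and 0 times in Plod3. With 4 windows chosen after their values were known, these letters are a description of the windows and no test was made.

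Every enzyme was lower in every KO_tumor library than in every KO_CAF library (10 of 10, where 21.3% of all genes were so placed), and 4 of 10 were lower without overlap in WT_tumor than in WT_CAF (7.01% of all genes). Within a library format, all 10 differences of WT_tumor against WT_CAF were below 0 in the 6-base libraries (3 against 1 library). In the 16-base libraries (1 against 2) 9 of 10 were, with Loxl4 at 0.06 and P4ha2 at -0.07. For KO_tumor against KO_CAF all 10 were below 0 in both formats (2 against 2 and 1 against 1). That follows from the lack of overlap and adds no support. The count of 7 enzymes with Saa3 intact was 8 without WT_CAF 1, which changes the spread but not the size of these differences. It was also 8 with WT_CAF 1 and WT_tumor 4 both left out, and 6 without WT_tumor 3. It was 4 (Lox, Loxl1, Loxl3 and Plod1) without WT_CAF 3, the only WT_CAF library with a 6-base index.

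Some of these enzymes moved with fibroblast markers across libraries. Summed FPKM of the 8 fibroblast markers was 49.9 to 161 in WT_tumor and 10.5 to 65.5 in KO_tumor, against 183 to 12023 in WT_CAF and 2190 to 9789 in KO_CAF, and none of the 8 was at 0 in any library. Among tumor cell libraries, WT_tumor 3 (fibroblast marker mean 3.31) and KO_tumor 1 (2.09) were the highest in Lox and Loxl1, with Pdgfra at 1.86 and 0.598 FPKM. Loxl3 too was highest in WT_tumor 3. Loxl2, Plod2, Plod3 and P4ha3 were instead highest in WT_tumor 4 (marker mean 1.49), and Loxl4, Plod1 and P4ha2 in WT_tumor 1 (1.19). Among fibroblast libraries, WT_CAF 1 was the lowest in Lox, Loxl1, Plod1, Plod2, P4ha2 and P4ha3, but not in Loxl2, Loxl3, Loxl4 and Plod3. The part of fibroblast RNA in the tumor cell values was not tested. Without WT_tumor 3 the Loxl1 difference was -6.53 ± 1.04 (adjusted p = 0.00156).

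**Figure D3:**
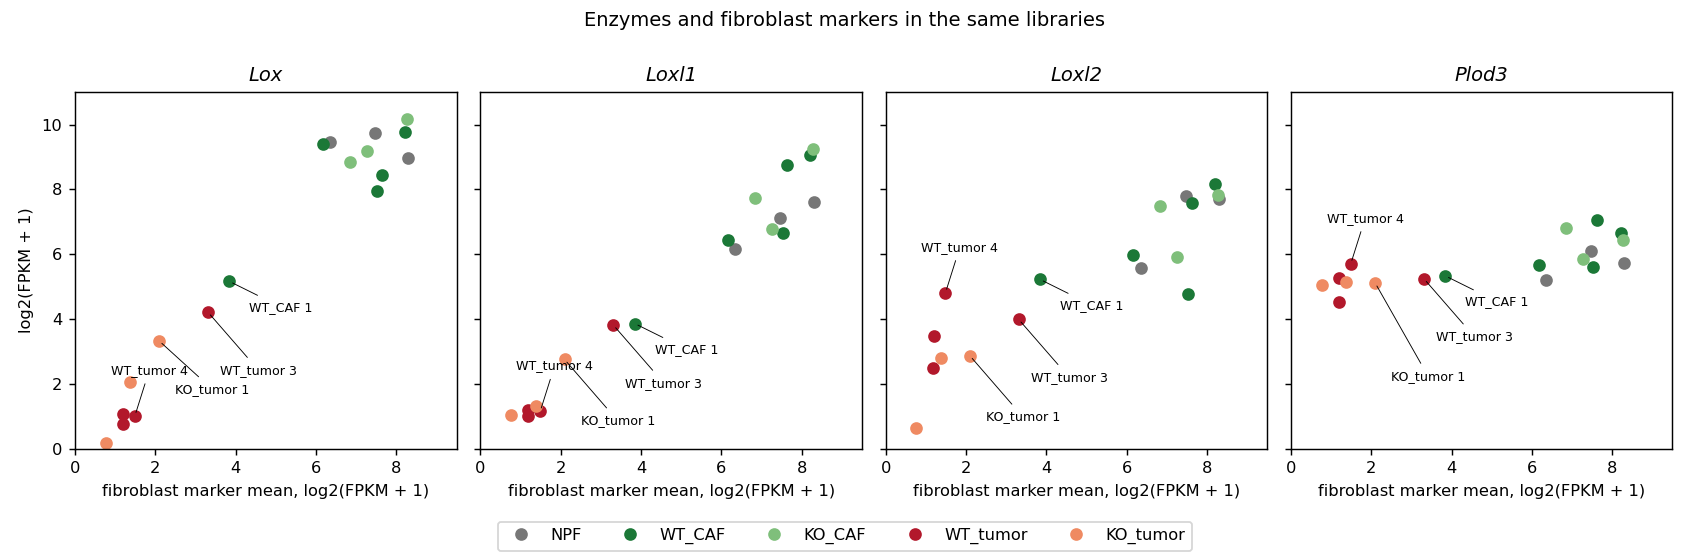
Level of Lox, Loxl1, Loxl2 and Plod3 (y axis) against the mean of 8 fibroblast markers (x axis) in the same library, both on the log2(FPKM + 1) scale, coloured by group. Lox and Loxl1 are low in the tumor cell libraries with the fewest fibroblast markers and higher in KO_tumor 1, WT_tumor 3 and WT_CAF 1, whereas Loxl2 in WT_tumor 4 and Plod3 in all 7 tumor cell libraries stand well above 0 at a marker mean of 3.31 or less.

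The makeup of the lysyl oxidases and of the lysyl hydroxylases differed between the cell types, as a description without a test of shares. Of the summed FPKM of the 5 lysyl oxidases, Lox held 68.6% ± 15.1 (SD) in NPF, 51.2% ± 18.7 in WT_CAF and 60.6% ± 10.7 in KO_CAF, against 11.7% ± 14.0 in WT_tumor and 19.8% ± 16.3 in KO_tumor. Loxl2 held 48.7% ± 20.4 of the family in WT_tumor (27.7% to 76.7%) and 16.8% ± 11.7 in WT_CAF, while in KO_tumor it held 25.5% ± 14.6 (11.4% to 40.5%). These shares come from small totals in tumor cells: the median family sum was 28.9 FPKM in WT_tumor and 14.9 in KO_tumor, against 866 in WT_CAF and 872 in KO_CAF.

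Among the lysyl hydroxylases, Plod3 held 68.2% ± 4.76 of the family FPKM in WT_tumor (61.6% to 72.3%) and 73.9% ± 9.45 in KO_tumor (67.4% to 84.8%). In NPF it held 28.1% ± 1.12 and in KO_CAF 29.8% ± 3.61. WT_CAF 2 to 5 had 23.6% to 36.3%, and WT_CAF 1 had 62.9%, inside the range of WT_tumor. Plod3 was the main lysyl hydroxylase RNA in each of the 7 tumor cell libraries and in WT_CAF 1, and Plod1 and Plod2 together made up most of the family in the other 10 fibroblast libraries. Of the sum of P4ha1, P4ha2 and P4ha3, P4ha2 held 41.4% ± 5.53 in NPF, 47.0% ± 5.06 in WT_CAF, 49.6% ± 2.07 in KO_CAF, 50.9% ± 8.89 in WT_tumor and 61.6% ± 12.9 in KO_tumor. P4ha1 held nearly the same share in WT_CAF (44.1% ± 5.31) and WT_tumor (44.8% ± 8.25), and 43.3% ± 1.78 in KO_CAF against 35.6% ± 13.7 in KO_tumor. P4ha3 held 8.91% ± 2.55 in WT_CAF and 7.10% ± 3.69 in KO_CAF, against 4.298% ± 1.44 in WT_tumor and 2.83% ± 1.35 in KO_tumor.

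**Figure D4:**
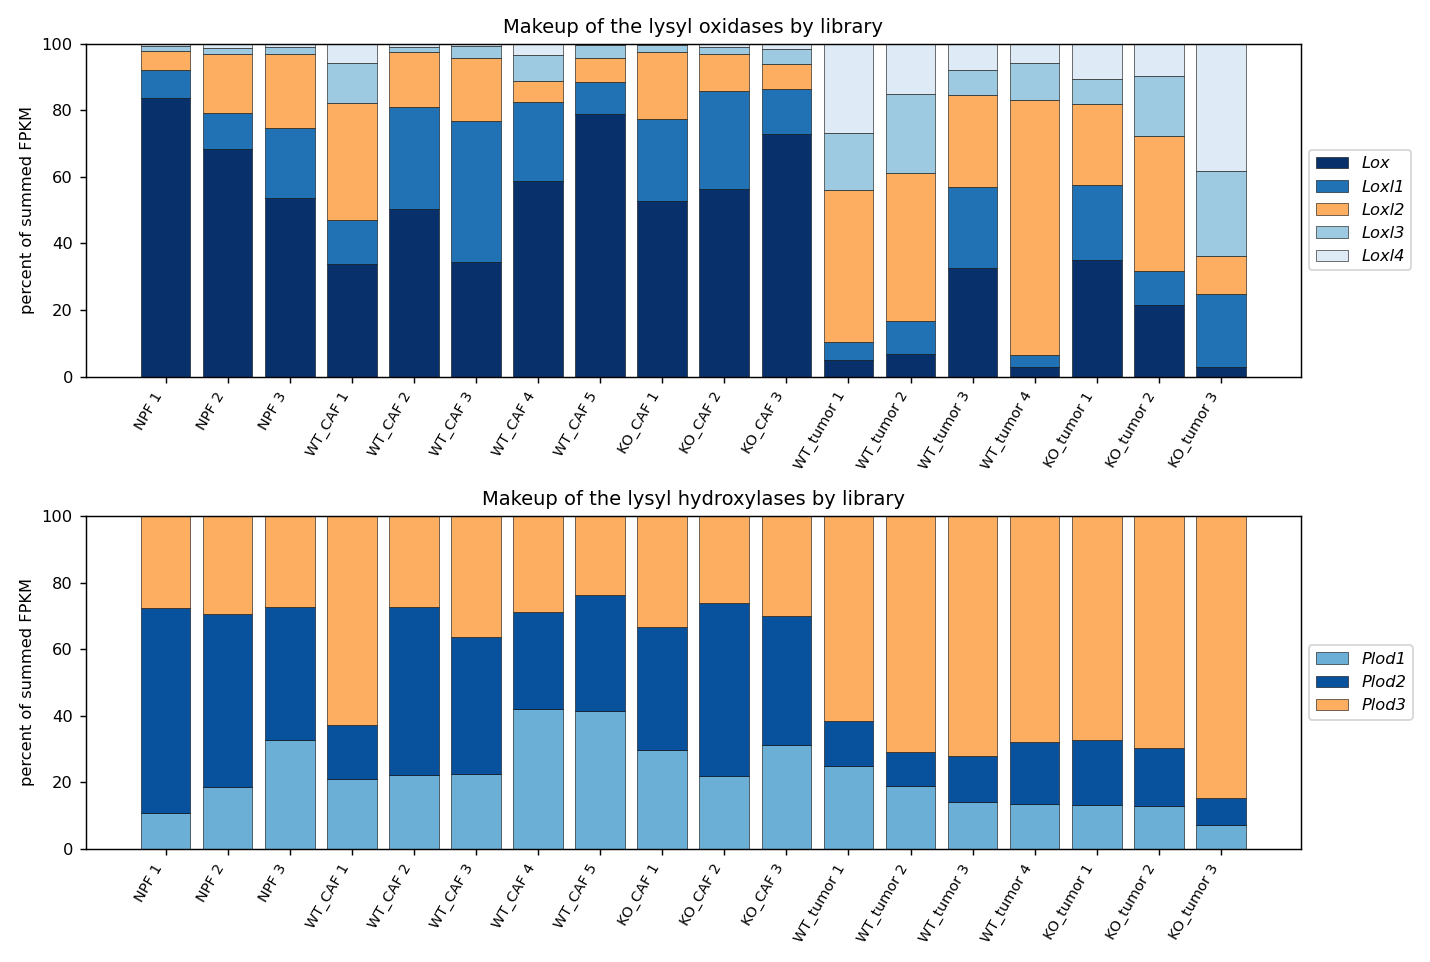
Share of each lysyl oxidase (top) and lysyl hydroxylase (bottom) in the summed FPKM of its family, in percent, for each of the 18 libraries on the x axis. Plod3 fills 61.6% to 84.8% of the lower bars in tumor cells and 23.6% to 36.3% in fibroblasts other than WT_CAF 1.

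The partners of these enzymes in the collagen pathway were lower in tumor cells in most lists. Of 18 tested genes that fold or modify collagen, 12 fell with Saa3 intact (none rose) and 11 fell without it (1 rose). Over all genes tested, 12.5% were lower and 9.05% higher with Saa3 intact, and 15.4% were lower and 13% higher without it. Among those lower in both were Serpinh1, the collagen chaperone Hsp47 (-4.40 ± 0.78 and -3.58 ± 0.80), Leprel2, a prolyl 3-hydroxylase (-4.78 ± 0.74 and -5.50 ± 0.75), Crtap, a scaffold of prolyl 3-hydroxylation (-3.07 ± 0.50 and -3.21 ± 0.51), and Fkbp10, a proline isomerase (-3.34 ± 0.70 and -2.53 ± 0.71). P4ha1, the alpha chain of the type I enzyme, had differences of -1.29 ± 0.44 (adjusted p = 0.0511) and -1.83 ± 0.45 (adjusted p = 0.00901). P4hb, the beta chain shared by all prolyl 4-hydroxylases, had -0.82 ± 0.30 (adjusted p = 0.0679) and -1.18 ± 0.31 (adjusted p = 0.0118). Leprel1, a prolyl 3-hydroxylase, was the 1 that rose without Saa3 (0.82 ± 0.27, adjusted p = 0.0339), at levels of 0.589 to 2.06 FPKM in KO_tumor.

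Of 12 tested genes of procollagen export and trimming, 6 fell and 1 rose with Saa3 intact, and 8 fell and 1 rose without it. For this list and the 2 that follow, the shares of all genes that were lower were again 12.5% and 15.4%. Adamts2, which removes amino-terminal propeptides, had differences of -5.51 ± 1.004 and -5.95 ± 1.02, and Bmp1, the carboxy-terminal proteinase that also activates Lox, had -2.87 ± 0.54 and -2.94 ± 0.55. The gene that rose in both was Mia2, a cargo receptor for export of large secretory loads (2.71 ± 0.58 and 2.56 ± 0.59), and the overlapping row Ctage5 did not pass the test (adjusted p = 0.199 and 0.363). Of the 8 tested fibrillar collagens and elastin, 5 fell in each comparison. Eln had -6.43 ± 1.65 and -7.79 ± 1.68, and Col5a2, a chain of the collagen V that starts fibrils, had -5.28 ± 1.003 and -7.52 ± 1.02. Col1a1 and Col1a2 in KO_CAF 2 and Col3a1 in WT_CAF 2, 3 and 4 were listed at exactly 0 while other libraries of the group were at 314 FPKM or more. Col3a1 was also listed at 0 in KO_CAF 1 and 2 and at 9049.7 FPKM in KO_CAF 3, and Col3a1 did not pass the test in either comparison. Of 10 partners of collagen and elastic fibres, 8 fell in each comparison, among them Dcn (-8.31 ± 1.47 and -8.46 ± 1.495) and Bgn (-7.63 ± 1.27 and -7.88 ± 1.29), small proteoglycans that bind fibrils. Dcn and Lum of this list are also among the 8 fibroblast markers. Fn1 of this list was at exactly 0 in WT_CAF 1 and KO_CAF 1, where other libraries had at least 341 FPKM in WT_CAF and 851 in KO_CAF.

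Few genes that supply cofactors or mark hypoxia passed the test. Of 5 genes of copper, vitamin C and zinc supply, none was called with Saa3 intact (the smallest unadjusted p was 0.14) and 1 fell without it, Slc31a1, the copper importer (-0.82 ± 0.29, adjusted p = 0.0477). Of 15 genes of the hypoxia response, which includes P4ha2 and Plod2 among its known targets, none fell, and 1 rose with Saa3 intact and 2 without it (9.05% and 13% of all genes were higher). Adm, the vasodilator adrenomedullin, stood lowest at -2.34 ± 1.05 and -2.58 ± 1.06 (adjusted p = 0.123 and 0.0838). Kdm3a, a histone demethylase induced by low oxygen, rose in both (0.90 ± 0.29, adjusted p = 0.0428, and 0.98 ± 0.30, adjusted p = 0.0257), and Ankrd37 rose without Saa3 (2.05 ± 0.67, adjusted p = 0.0349). Over the 6 lists, 33 of 68 tested genes were called with Saa3 intact (31 lower) and 37 without it (33 lower). Of all genes tested, 12.5% and 15.4% were lower in these comparisons. The count of 33 was 15 without WT_CAF 3.

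Tumor fibroblasts were set against normal pancreatic fibroblasts to see whether the enzymes change in fibroblasts of the tumor. None of the 10 passed the test in WT_CAF against NPF and none had an unadjusted p under 0.05. Over the 13369 genes tested, 0.95% were called in either direction and 2254 had an unadjusted p under 0.05. The size of each difference rests on WT_CAF 1 and 2 against the 3 NPF libraries, the only ones without an index, and these 2 tumor fibroblast libraries were far apart. The acinar marker means of the 2 groups did not overlap, at 6.26 or more in NPF and 5.42 or less in WT_CAF, and their part in these differences was not tested. Lox differed by -1.92 ± 1.25 (interval -4.61 to 0.76), Plod2 by -1.01 ± 0.90 (interval -2.94 to 0.91) and P4ha2 by -1.01 ± 0.57 (adjusted p = 0.385), and Plod1, Plod3, Loxl3, Loxl4 and P4ha3 lay between -0.11 and 0.31.

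Leaving out either of the 2 libraries turned several signs. Without WT_CAF 1, Lox was at 0.38, Loxl1 at 2.10 ± 1.02 (adjusted p = 0.394) and Plod2 at 1.02. Without WT_CAF 2, which leaves WT_CAF 1 alone against NPF, Plod2 was at -3.05 ± 0.73 (adjusted p = 0.0211) and was the only one of the 10 called. Across all WT_CAF libraries, Plod1 stood above NPF in 4 of 5: WT_CAF 2 to 5 had 70.3 to 86.7 FPKM and NPF had 14.2, 42.8 and 62.6, while WT_CAF 1 had 13.1. Without the format term and WT_CAF 1, its difference was 1.21 ± 0.43, which did not pass the test (adjusted p = 0.11). None of the 68 tested genes of the 6 pathway lists was called in this comparison (limma). Of these, 4 had an unadjusted p under 0.05, as did 2254 of the 13369 genes tested.

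Loss of Saa3 was examined in each cell type. In KO_CAF against WT_CAF none of the 10 enzymes passed the test or had an unadjusted p under 0.05 (0.00748% of all genes were called, and 125 genes had an unadjusted p under 0.05). Differences ran from -0.15 ± 0.37 for Loxl3 to 0.74 ± 0.67 for Loxl4, with Lox at 0.72 ± 1.15 (interval -1.75 to 3.20) and Plod1 at -0.02 ± 0.62. The intervals of Lox, Loxl1 and Loxl2 span more than 4 log2 units each, so changes of several fold in either direction were not detectable here.

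In KO_tumor against WT_tumor none of the 10 passed the test or had an unadjusted p under 0.05, and 0% of all genes were called (528 genes had an unadjusted p under 0.05, and the smallest adjusted p was 0.32). Loxl2 was at -1.52 ± 0.88 (interval -3.40 to 0.35, unadjusted p = 0.104), with 4.56 to 27.1 FPKM in WT_tumor and 0.547 to 6.30 in KO_tumor. This difference was -1.21 ± 0.93 without WT_tumor 4 and -0.58 ± 0.90 without KO_tumor 3, the library with the lowest Loxl2. KO_tumor 3 also had the highest acinar marker mean of the 7 tumor cell libraries (10.5) and the lowest mean over the 10 enzymes (1.94), and the part of acinar RNA in this difference was not tested. Loxl3 was at -0.67 ± 0.34 (interval -1.40 to 0.06, unadjusted p = 0.0676), with 1 KO_tumor library at 2.71 FPKM inside the WT_tumor range of 2.45 to 4.10. Lox, Loxl1, Plod2 and Plod3 differed by between -0.10 and 0.12. Saa3 itself was at 4.10 FPKM or less in WT_tumor 1, 2 and 4, so those libraries had little Saa3 RNA to lose.

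The difference between tumor cells and fibroblasts was compared between the 2 Saa3 states through the interaction of Saa3 loss and cell type. With every library in the fit the 10 interaction terms were below 0, and none passed the test or had an unadjusted p under 0.05 (0% of all genes called, 185 with an unadjusted p under 0.05). Loxl2 had the largest, -2.22 ± 1.31 (interval -5.03 to 0.60). For Lox it was -0.60 ± 1.57 and for P4ha2 -0.02 ± 0.72. The shared sign rested on single libraries: without KO_tumor 3, 5 of the 10 terms were above 0 (Lox at 0.47, Loxl1 at 0.49, Plod2 at 0.13, Plod3 at 0.01 and P4ha2 at 0.34), and without WT_tumor 1, 3 were. Of the 68 pathway genes, none was called for Saa3 loss in fibroblasts, for Saa3 loss in tumor cells or for the interaction, with 0, 3 and 1 at an unadjusted p under 0.05.

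**Figure D5:**
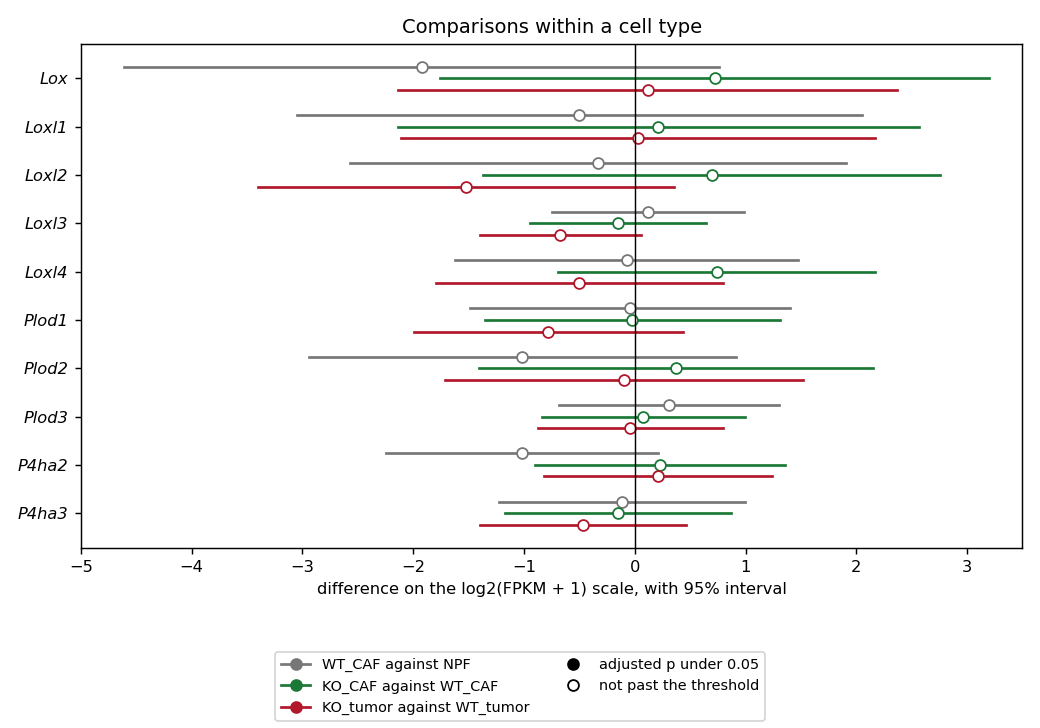
Difference for each enzyme between tumor and normal fibroblasts (grey), between fibroblasts without and with Saa3 (green) and between tumor cells without and with Saa3 (red), on the log2(FPKM + 1) scale with 95% intervals. All points are open (no adjusted p under 0.05) and each interval reaches 0, the widest being those of Lox, such as -4.61 to 0.76 for the grey bar.

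The genes whose levels ran most closely with each enzyme over the 18 libraries were named by Pearson's r on the log2(FPKM + 1) scale, as a description, since libraries of 2 cell types share the contrast that separates them. For Lox these were Lrrc32, Bgn and Serpinf1 (r = 0.98 each), and for Loxl1 Mrc2, the collagen uptake receptor Endo180 (0.99), Islr and Ssc5d (0.98 each). Loxl2 ran with Col5a1 (0.94), Col15a1 (0.94) and Arhgap31 (0.93), and Loxl3 with Sod3, the extracellular superoxide dismutase, Spon2 and Cyp1b1 (0.97 each). Plod1 ran with B3gnt9 (0.97), Aebp1 (0.97) and Col6a2 (0.96), and Plod2 with Rtn2, Vkorc1 and Pcdhb22 (0.96 each). Plod3 ran with Lepre1, a prolyl 3-hydroxylase (0.93), Fam131a (0.93) and BC018242 (0.91), P4ha2 with Yif1b (0.88), Prss57 (0.87) and Eva1b (0.86), and Loxl4 with Amotl2 (0.89), Cmah (0.86) and Lpar4 (0.86). P4ha3 ran with Gm11627, Rilpl1 and Ikbip (0.93 each).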

How the data were processed

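The authors deposited 1 table of FPKM values for 18 libraries of poly(A) RNA, sequenced on an Illumina HiSeq2000 from TruSeq libraries, per the labels' protocols. Per the submitters' processing notes, Cufflinks 2.2.1, Cuffnorm, Bowtie 1.0.0, TopHat2 2.0.10 and SAMtools 0.1.19 were among the tools, and mm9 is the mouse build they name. Settings and gene annotation are not stated in the labels used here. Such FPKM are estimates from a model, so a 0 can mark a failed estimate. No counts were used.

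Testing covered the 13369 of 23951 genes that reached 1 FPKM in 3 libraries, on log2(FPKM + 1) with limma 3.58.1 in R 4.3.3 (empirical Bayes with a trend), in 1 fit of all 18 libraries with 5 groups and the library format (no index, 6-base or 16-base index in the labels) as an additive term, leaving 11 residual degrees of freedom. Tests were two-sided, with Benjamini-Hochberg adjustment over all genes tested and a threshold of 0.05. With the format term, WT_CAF against NPF rests in size on WT_CAF 1 and 2, and the other comparisons with WT_CAF on WT_CAF 3, 4 and 5, while FPKM means cover all 5. Differences on this scale understate changes of low genes. Replicate numbers follow deposition order. The fit was also run on simulated data with independent noise, no effect of format and no library set apart, unlike these data. No result given here rests on that run.

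All 10 enzymes are named in each comparison. Of the pathway lists, called genes were named by size of difference, at most 8 of a list. P4ha1, P4hb, Leprel1, Ctage5, Col1a1, Col1a2, Col3a1, Fn1 and Lum were named after their values were seen. The genes most like each enzyme are the 3 with the highest Pearson r. Members, lists and tests were chosen with earlier results of these data known. Alternatives were no format term, only the groups compared, a pseudocount of 0.1, no filter, 1 FPKM in at least 6 libraries, rescaling libraries to the same FPKM sum, quantile normalization, no trend, and each library left out. Leaving out WT_CAF 1 and WT_tumor 4 together was chosen after seeing the data.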

Additional observations from a re-analysis of the deposited data

Results flagged for a closer look

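In 4 of 20 sets of values (1 enzyme in WT_CAF or in WT_tumor, the groups of 4 or more libraries), 1 library stood far from the others of its group on the log2(FPKM + 1) scale by Dixon's ratio, the gap to its nearest neighbour over the whole range. Chance alone gives about 1 in 20 such sets. Lox in WT_tumor had a ratio of 0.911, from 17.5 FPKM in WT_tumor 3 against 0.680 to 1.08 in the other 3. Loxl1 in WT_tumor had 0.939, from 13.1 FPKM in the same library against 1.02 to 1.27. WT_tumor 3 also held the most fibroblast marker RNA of the 7 tumor cell libraries, and the part of that RNA in its Lox and Loxl1 was not tested. Loxl3 in WT_tumor had 0.873, from 2.45 FPKM in WT_tumor 2 against 3.85 to 4.10. Plod1 in WT_CAF had 0.887, from 13.1 FPKM in WT_CAF 1 against 70.3 to 86.7.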

How the results depend on the processing

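Across 28 alternative settings for each of the 10 enzymes (280 values per comparison), no called difference reversed. For WT_tumor against WT_CAF, 255 values kept their side of the threshold, 20 lost the call and 5 gained it, and for KO_tumor against KO_CAF these were 267, 7 and 6. In the other comparisons within a cell type and the interaction, the 1 change was Plod2 in WT_CAF against NPF without WT_CAF 2. The 7 enzymes called in WT_tumor against WT_CAF became 4 with only the groups compared, 9 with neither the format term nor WT_CAF 1, and 4 (without WT_CAF 3) to 8 with each library left out in turn. The pathway genes called in that comparison went from 33 to 16 with only the groups compared and to between 15 (without WT_CAF 3) and 37 with each library left out. All genes called there went from 2880 to 742 and, without WT_CAF 3, to 1201, with fewer libraries in the fit. For KO_tumor against KO_CAF the enzymes called ranged from 7 to 9 and the pathway genes from 31 to 40, and for WT_CAF against NPF the enzymes called ranged from 0 to 1 (without WT_CAF 2). All genes called in WT_CAF against NPF, 127 in the fit described above, ranged from 2 to 906 in the settings other than leaving out 1 library. Rescaling libraries to the same FPKM sum moved the median of all genes from -0.01 to 0.21 in WT_CAF against NPF, and that of the 10 enzymes from -0.22 to 0.06. No paired analysis was possible because the labels do not tie libraries to animals. Whether fibroblast and tumor cell libraries came from the same animals is therefore unknown, and the tests treat them as separate. Depth in fragments is unknown, so the precision of values near 1 FPKM, as for Lox and Loxl1 in tumor cells, cannot be stated.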

Other observations

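The spread within a group differed widely between the enzymes. In WT_CAF the coefficient of variation of FPKM was 100.2% for Loxl1, 94.1% for Loxl2, 77.5% for Plod2 and 76.9% for Lox, against 34.0% for Loxl3. In NPF it was 46.4% for Loxl1, 61.0% for Loxl2, 25.2% for Plod2, 25.9% for Lox and 31.9% for Loxl3. P4ha1, the alpha chain outside the 10 enzymes, stood at 86.8 ± 5.69 FPKM (SD, n = 3) in NPF, 59.6 ± 24.7 (n = 5) in WT_CAF and 80.6 ± 28.0 (n = 3) in KO_CAF, and at 29.3 ± 8.64 (n = 4) in WT_tumor and 22.6 ± 10.96 (n = 3) in KO_tumor.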
